A study of Mus musculus with 3 samples.

Results

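The genes described here encode the machinery that folds, modifies, exports and cross-links collagen. They were taken by symbol from a list of 40 enzymes, chaperones and transport factors, of which 39 were found among the 43280 genes listed. The remaining symbol, Glt25d1, is absent, and the same galactosyltransferase is listed as Colgalt1, which is given separately. All 39 passed the expression floor, a mean of at least 5 CPM over the libraries, where CPM are counts scaled to library size, as did 12125 genes in all.

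Procollagen chains enter the endoplasmic reticulum (ER), where prolines and lysines are hydroxylated and chaperones hold the chains until the triple helix has formed. The folded trimer leaves in enlarged COPII carriers, its propeptides are cut off outside the cell, and lysyl oxidases then link the molecules into fibrils. Osteoblasts of the skull make type I collagen in bulk, and inherited defects in many of these genes cause brittle bone disease.

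RNA was sequenced from primary cells of E15.5 mouse skeletal mesenchyme, described for the series as calvarial, with 1 library for each of 3 genotypes at Ctnnb1, the gene of beta-catenin. The library called dTF-cKO carried fx/dm alleles and Dermo1-Cre. The library called cKO carried fx/fx alleles and the same Cre, and the control carried fx/fx alleles with no Cre. Dermo1-Cre is driven from the Twist2 locus in mesenchymal cells, so cells outside that lineage keep the floxed allele unrecombined. The labels do not define dm, which in mouse genetics names an allele whose protein keeps adhesion and lacks transcriptional output. No fx/dm library lacked Cre, so between the dTF-cKO and the control, carrying dm and recombination of the floxed allele cannot be told apart. The cKO carries Cre without dm, but with both alleles floxed. The number of embryos behind a library is not stated.

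Each genotype had a single library, so no difference has a replicate check and none was tested. Genes counted as different passed a log2 difference of 1 in either direction, which is 2-fold. Folds are ratios of scaled counts, against the control where no other library is named, with an exact 95% interval that covers counting error only. Without molecular identifiers, PCR copies cannot be told from separate molecules, and the intervals leave out the spread between embryos too.

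The libraries held 2905264 counts for the dTF-cKO, 2678457 for the cKO and 3634819 for the control. Ctnnb1 stood at 442, 745 and 1026 CPM in that order, counted over the whole gene, so its alleles were not separated. Xist had 2, 0 and 1233 counts in the same order, so sex-linked expression differed together with genotype. The tissue makeup differed too, in part against the label of skeletal mesenchyme. The 12 osteoblast markers summed to 351 CPM in the dTF-cKO, with Panx3 at 0, to 1114 CPM in the cKO and to 7059 CPM in the control. The 15 epidermis markers summed to 13959, 23496 and 148 CPM, with Ivl, Dsg1a and Grhl3 at 0 in the control. Between the Cre-carrying libraries single epidermis markers differed in both directions, 8 of the 15 lying below the cKO in the dTF-cKO and 7 above it. The 28 markers of dermis, meninges, vessel wall and endothelium, called stroma here, summed to 2136, 3900 and 3677 CPM. The 9 chondrocyte markers summed to 499, 2992 and 974 CPM, and the 8 skeletal muscle markers to 28, 710 and 5745 counts, with Ckm and Myog at 0 in the dTF-cKO. The part of these shifts in the results on collagen machinery was not tested. In bulk RNA, fewer cells of a type and less RNA per cell cannot be told apart.

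Because the tissue differed, every direction was also computed under 5 other scalings. The one with most effect, called the stroma scaling, sets the median difference of the 28 stroma markers to 0. It adds 1.85 to each log2 difference between the dTF-cKO and the control, takes 0.40 from each between the cKO and the control, and adds 1.83 between the dTF-cKO and the cKO. The median of all measured genes then stands at 1.90, -0.34 and 1.84 in that order. The markers differ widely among themselves. Before that shift they ran from -5.12 to 2.39 in the dTF-cKO against the control. At least 2-fold lower were 18, or 64.3%, against 20.9% of all genes, and 3 were higher, or 10.7%, against 19.5%. Leaving the 20 most abundant genes of every library out of the totals placed the median of all measured genes at -0.30 in the dTF-cKO against the control. Against the cKO it was -0.29. Setting the median of 39 other secretory genes to 0 takes 0.21 from the differences between the dTF-cKO and the control. The median of all measured genes was then -0.15 there. It was 0.37 in the cKO against the control and -0.48 in the dTF-cKO against the cKO.

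The machinery divided by role. In the dTF-cKO the general chaperones of the ER were higher than in the control under every scaling except for Pdia4 under 1 of them, while the genes dedicated to collagen were mostly lower under TMM, edgeR's trimmed mean scaling, with 16 of the 39 genes turning above the control under the stroma scaling. Of the 39 genes, 17 were at least 2-fold below the control in the dTF-cKO, or 43.6%, against 20.9% of all measured genes. Another 4 were at least 2-fold higher, or 10.3%, against 19.5% of all measured genes. Their median log2 difference was -0.80 for the 39 genes and 0.05 for all measured genes. The stroma scaling turned the first to 1.05, with 6 genes lower and 20 higher, and the second to 1.90. The 39 genes thus stayed below all measured genes by median under that scaling too. In the cKO 8 of the 39 were at least 2-fold lower than in the control, or 20.5%, against 6.78% of all genes. That count was 3 with the median of the other secretory genes set to 0 and 22 under the stroma scaling. These scalings placed the median of all measured genes at 0.37 and -0.34. None was at least 2-fold higher, against 9.67% of all genes, and the median was -0.62, against 0.06 for all measured genes. By counting intervals that exclude 1, 24 genes lay below the control in the dTF-cKO, against 32.2% of all genes, and 11 above it, against 37.5%. In the cKO 33 lay below it, against 19.2%, and 1 above it, against 25.1%.

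Direction held under all scalings for part of the list only. In the dTF-cKO 10 of the 26 genes below the control stayed below it under all of them, namely P4ha3, Lepre1, Fkbp14, Fkbp7, Creb3l1, Pcolce, Pcolce2, Loxl1, Loxl3 and Loxl4. Of the 13 above the control 9 stayed above it, namely P4ha1, P4hb, Hspa5, Hsp90b1, Pdia3, Pdia6, Calr, Canx and Tmem38b. In the cKO 30 of the 36 genes below the control stayed below it, and none of the 3 above it stayed above.

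**Figure D1:**
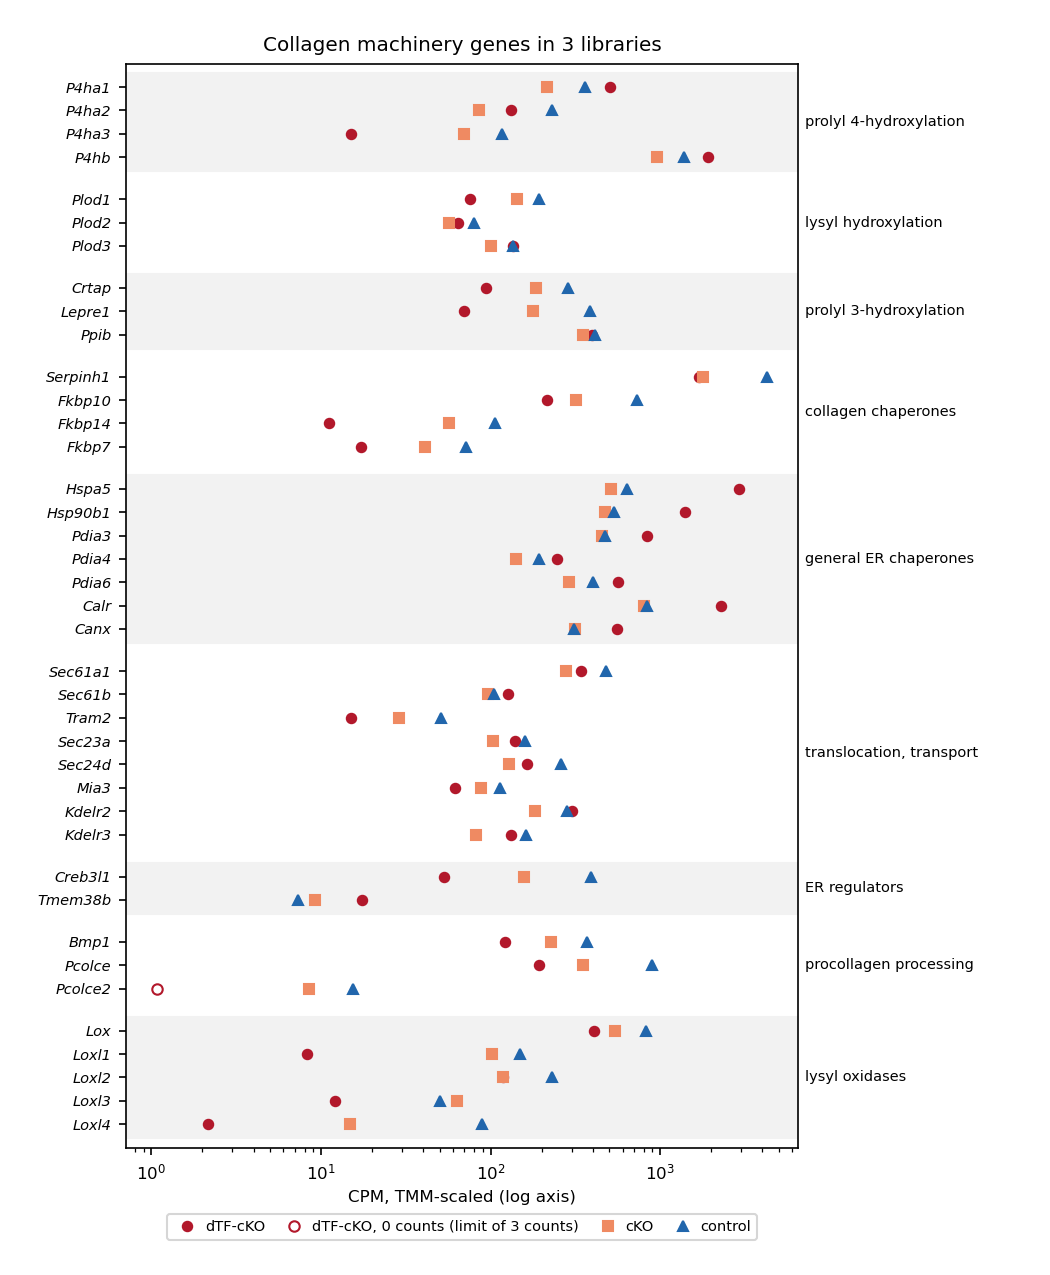
Level of each of the 39 genes in CPM after TMM scaling, on a log axis, with rows grouped by role. Circles are the dTF-cKO, squares the cKO and triangles the control, with 1 library each, and the open circle marks Pcolce2, with 0 counts in the dTF-cKO, at its limit of 1.07 CPM. Hspa5, Hsp90b1 and Calr stand to the right in the dTF-cKO, at 2903, 1399 and 2297 CPM, and Serpinh1 to the right in the control, at 4289 CPM.

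Summed over the list, the totals hid this division. The 39 genes took 1.58% of counts in the dTF-cKO (exact 95% interval 1.56% to 1.59%), 1.07% in the cKO (1.05% to 1.08%) and 1.65% in the control (1.64% to 1.66%). The 7 general ER chaperones took 0.847%, 0.315% and 0.334% in that order, and the other 32 genes took 0.728%, 0.752% and 1.32%. The dTF-cKO and the control thus differed little in total but divided it differently between the general ER chaperones and the other 32 genes.

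The general ER chaperones fold secreted proteins of every kind. Hspa5, or BiP, the Hsp70 of the ER lumen and the sensor partner of the unfolded protein response, had 2903 CPM in the dTF-cKO, 513 in the cKO and 636 in the control. Its gene spans mm10 chromosome 2 from 34771970 to 34777547. The dTF-cKO library stood 4.57-fold above the control (4.36 to 4.79) and 5.66-fold above the cKO (5.36 to 5.99), while the cKO stood 1.24-fold below the control (1.16 to 1.33). Hsp90b1, or GRP94, the Hsp90 of the ER, had 1399, 474 and 537 CPM in the same order and was 2.61-fold above the control in the dTF-cKO (2.47 to 2.75). Calr, the lumenal lectin chaperone calreticulin, had 2297, 799 and 841 CPM and was 2.73-fold higher (2.62 to 2.85). These 3 are the only general chaperones past 2-fold, or 42.9% of 7, against 19.5% of all genes.

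The other 4 were higher in the dTF-cKO by less than 2-fold. Canx, the membrane-bound partner of Calr, had 556 CPM in the dTF-cKO, 314 in the cKO and 309.9 in the control, and the ratio to the control was 1.79 (1.66 to 1.94). The disulfide isomerases Pdia3, Pdia6 and Pdia4 had ratios to the control of 1.75, 1.39 and 1.28. For all 7 the counting interval lay above 1, as it did for 37.5% of all genes. Pdia4 turned to -0.01 on the log2 scale when the 20 most abundant genes of each library were left out of the totals. In the cKO the same 7 genes had log2 differences from the control between -0.48 and 0.02, none of them 2-fold. Their median there, -0.18, became 0.14 when the median of the other secretory genes was set to 0.

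Promoters of the listed genes were searched for a motif known from general ER chaperones, so its presence in those genes is no new result. The ER stress response element is CCAAT, then any 9 bases, then CCACG, and is bound by ATF6 with NF-Y. It was searched on both strands of RefSeq promoter windows of GRCm38.p6, from 250 bases before to 50 bases after each gene start. The letters occur in 39 of 32851 windows, or 0.119%. Of the 28 listed genes with a window, 5 hold it, and they are general ER chaperones, 5 of the 7. They are printed, since 3 of them lead the list upward in the dTF-cKO, from 10 bases before the first match to the base before the gene start, with both boxes in capitals. Hsp90b1 holds 2 matches. Matches on the other strand read CGTGG and then ATTGG.
Hspa5, chr2:34772015-34772089, plus strand: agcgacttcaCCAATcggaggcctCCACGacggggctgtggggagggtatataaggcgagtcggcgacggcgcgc
Hsp90b1, chr10:86705445-86705666, minus strand: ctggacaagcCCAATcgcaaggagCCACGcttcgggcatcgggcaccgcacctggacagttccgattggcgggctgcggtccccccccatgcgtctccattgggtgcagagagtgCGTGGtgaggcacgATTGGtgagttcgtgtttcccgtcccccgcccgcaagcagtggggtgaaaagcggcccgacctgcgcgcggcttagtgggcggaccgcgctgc
Pdia6, chr12:17266481-17266588, plus strand: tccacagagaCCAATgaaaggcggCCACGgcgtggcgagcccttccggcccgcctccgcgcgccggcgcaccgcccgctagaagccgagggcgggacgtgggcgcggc
Calr, chr8:84846932-84847103, minus strand: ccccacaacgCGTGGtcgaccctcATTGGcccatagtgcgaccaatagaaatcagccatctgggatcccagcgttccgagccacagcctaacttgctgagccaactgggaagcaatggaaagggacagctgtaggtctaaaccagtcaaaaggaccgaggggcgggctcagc
Canx, chr11:50325674-50325828, minus strand: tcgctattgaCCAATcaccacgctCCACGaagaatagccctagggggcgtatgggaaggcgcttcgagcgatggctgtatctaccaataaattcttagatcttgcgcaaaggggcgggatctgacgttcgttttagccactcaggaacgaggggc

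The matches start between 65 bases before the gene start, in Hspa5, and 212 bases before it, in Hsp90b1. Pdia3 and Pdia4 hold no exact match in these windows, nor does any of the 21 other genes with a window. The related sequence TGACGTGG, bound by ATF6 and XBP1, occurs in 0.676% of windows. On this list it lies in the windows of Sec23a, Sec24d and Kdelr3, genes of transport between ER and Golgi. Its core ACGTG, which is also the core of hypoxia response elements, is common, at 19.6% of windows and 15 of the 28 genes. It overlaps TGACGTGG in the 3 transport genes. A match describes letters and shows no binding. Plod2, Fkbp10, Sec61a1, Kdelr2, Creb3l1, Tmem38b, Bmp1, Lox, Loxl1, Loxl2 and Loxl3 were not searched.

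The dedicated collagen chaperones were below the control in both Cre-carrying libraries, except that Serpinh1 and Fkbp10 turned above it in the dTF-cKO under the stroma scaling. Serpinh1, or HSP47, is dedicated to procollagen and binds its triple helix in the ER. It is encoded on mm10 chromosome 7 between 99345376 and 99353239. It had 1704 CPM in the dTF-cKO, 1776.5 in the cKO and 4289 in the control. Both Cre-carrying libraries were therefore at a like level under TMM, 2.52-fold below the control in the dTF-cKO (2.44 to 2.60) and 2.41-fold below it in the cKO (2.34 to 2.49). In the control Serpinh1 was the most abundant gene of the list per kilobase of exon, at 1756 CPM per kb, whereas in the dTF-cKO Calr was, at 798 CPM per kb, with Serpinh1 at 697.

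The FKBP-type prolyl isomerases were lower still in the dTF-cKO, although Fkbp10 too turned above the control under the stroma scaling. Fkbp10, or FKBP65, a partner of Serpinh1, had 214, 318 and 728 CPM in the dTF-cKO, cKO and control. It was 3.41-fold below the control in the dTF-cKO (3.11 to 3.73) and 2.29-fold lower in the cKO (2.12 to 2.47). Fkbp14 had 11.1, 56.6 and 106 CPM in the same order. It was 9.55-fold lower in the dTF-cKO (6.61 to 14.3) and 1.87-fold lower in the cKO (1.55 to 2.26). Fkbp7 had 17.2, 41.0 and 71.3 CPM and was 4.16-fold lower in the dTF-cKO (3.05 to 5.79). So 4 of 4 dedicated chaperones were at least 2-fold lower in the dTF-cKO, against 20.9% of all genes, and 1 of 4 under the stroma scaling. In the cKO 2 of 4 were, against 6.78% of all genes, with 0 of 4 when the median of the other secretory genes was set to 0 and 4 of 4 under the stroma scaling. Under the stroma scaling Serpinh1 and Fkbp10 in the dTF-cKO turned to log2 differences of 0.52 and 0.08, while Fkbp14 and Fkbp7 stayed below 0.

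The split between both chaperone groups does not rest on the scaling, since it can be read within each library. The ratio of summed counts, general ER chaperones over dedicated chaperones, was 4.52 in the dTF-cKO, 1.36 in the cKO and 0.654 in the control. It was 6.92-fold above the control in the dTF-cKO (6.66 to 7.18, an approximate counting interval) and 2.08-fold higher in the cKO (2.0 to 2.17). Hspa5 set against Serpinh1 was 11.5-fold above the control in the dTF-cKO (10.9 to 12.2) and 1.95-fold higher in the cKO (1.81 to 2.10).

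**Figure D2:**
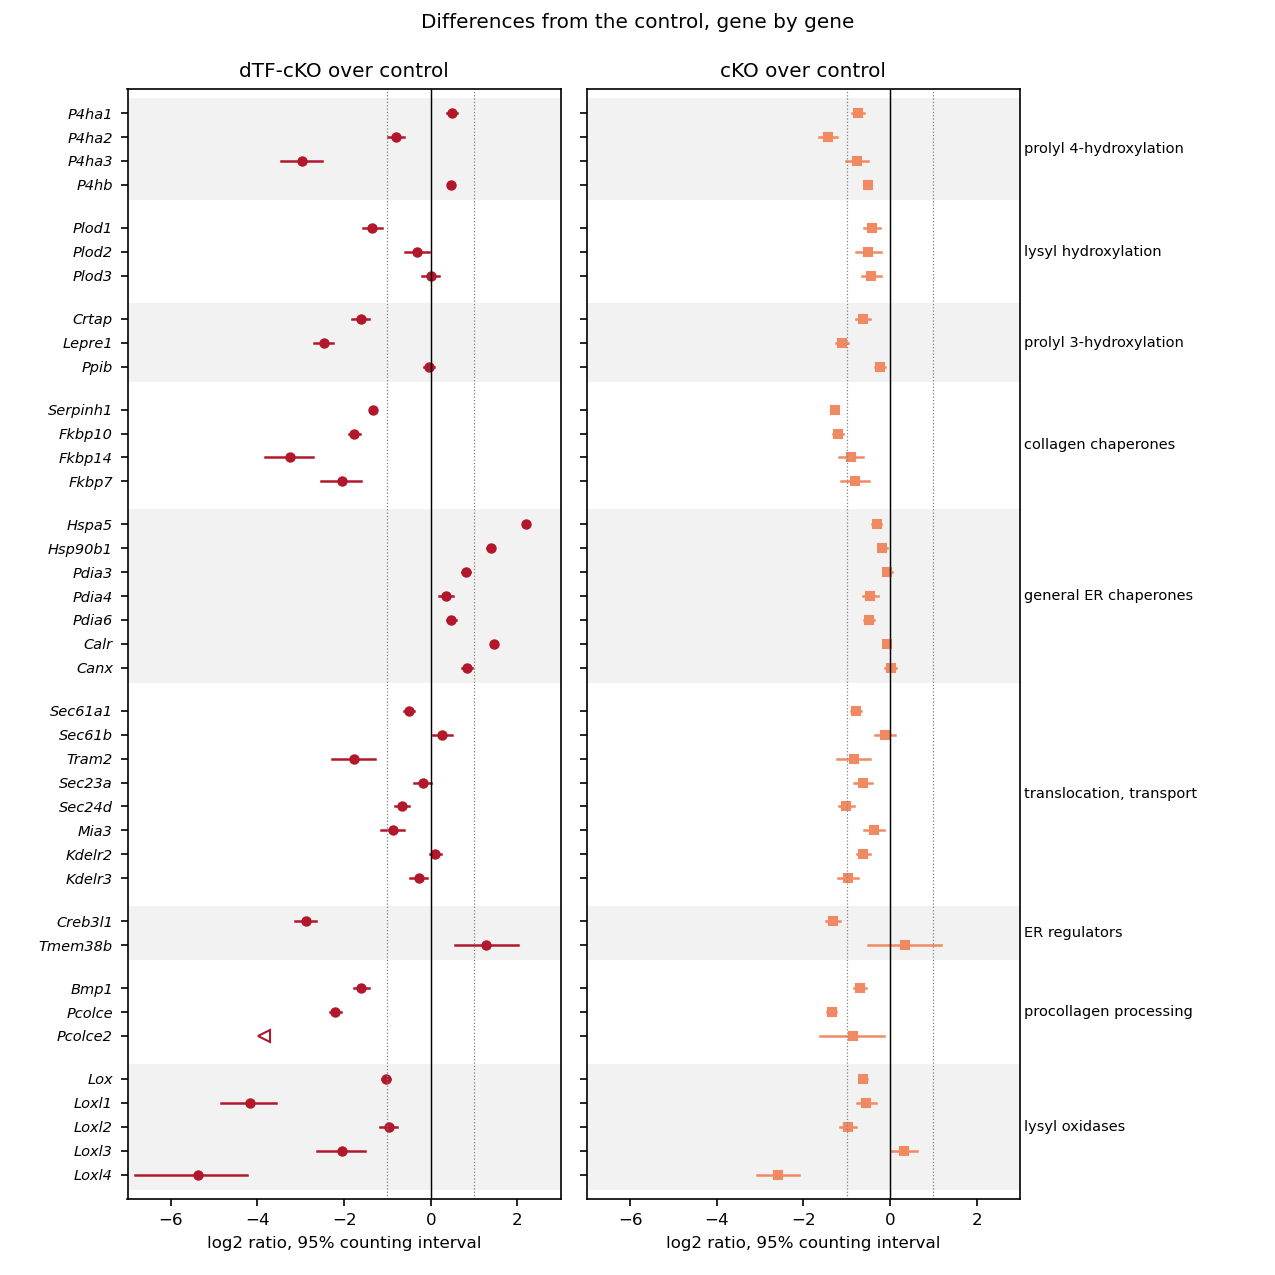
Log2 ratio of each gene to the control, in the dTF-cKO (left, circles) and the cKO (right, squares), with the 95% counting interval as a bar and dotted lines at 2-fold. The open triangle gives Pcolce2, with 0 counts, at its bound. All 7 general ER chaperones lie right of 0 in the dTF-cKO and within the 2-fold lines in the cKO. In the dTF-cKO the collagen chaperones, processing factors and lysyl oxidases lie left of 0, a side that Serpinh1, Fkbp10, Bmp1, Lox and Loxl2 leave under the stroma scaling and Pdia4 leaves, the other way, without the 20 most abundant genes.

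Prolyl 4-hydroxylase makes the hydroxyprolines that keep the triple helix stable at body temperature. It is a tetramer of catalytic alpha subunits, from P4ha1, P4ha2 or P4ha3, with the disulfide isomerase P4hb. P4hb also acts alone as a general folding enzyme, and like the general chaperones it was highest in the dTF-cKO, with 1909 CPM in the dTF-cKO, 963 in the cKO and 1373 in the control. It was 1.39-fold above the control in the dTF-cKO (1.34 to 1.45) and 1.43-fold lower in the cKO (1.36 to 1.49).

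The alpha subunits parted from each other. P4ha1 had 505 CPM in the dTF-cKO, 214 in the cKO and 359 in the control, which made the dTF-cKO 1.40-fold higher than the control (1.30 to 1.52) and 2.36-fold higher than the cKO (2.14 to 2.60). P4ha2 had 132, 86.0 and 231 CPM and was lowest in the cKO, at 2.69-fold below the control (2.33 to 3.11). In the dTF-cKO it was 1.75-fold lower (1.54 to 1.98), above the control under the stroma scaling. P4ha3 had 15.0, 69.3 and 117 CPM and was 7.83-fold lower in the dTF-cKO (5.69 to 11) and 1.69-fold lower in the cKO (1.43 to 2.02). Per exon base, P4ha1 made up 82.5% of alpha subunit counts in the dTF-cKO, 59.2% in the cKO and 54.0% in the control. P4ha3 made up 3.22%, 25.2% and 23.2%, its smallest share being in the dTF-cKO. P4ha1 set against P4ha3 was 11-fold above the control in the dTF-cKO (7.94 to 15.2), whereas in the cKO that ratio was 1.0 (0.83 to 1.23).

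Lysyl hydroxylases prepare lysines for glycosylation and for cross-links. Plod1, which acts on the helix, had 75.4 CPM in the dTF-cKO, 144 in the cKO and 192 in the control, and was 2.54-fold lower in the dTF-cKO (2.17 to 2.98). Under the stroma scaling its log2 difference turned from -1.34 to 0.51. Plod2, which acts on the telopeptides, had 64.3, 56.6 and 80.0 CPM, with a ratio to the control of 0.804 in the dTF-cKO (0.663 to 0.972). Plod3, which also adds sugars to hydroxylysine, had 135, 100.5 and 135 CPM, with a ratio of 1.0 in the dTF-cKO (0.872 to 1.15). Plod3 made up 56.5% of lysyl hydroxylase counts per exon base in the dTF-cKO, 41.2% in the cKO and 41.0% in the control. None of the 3 was 2-fold different in the cKO. Colgalt1, the galactosyltransferase whose older symbol is on the list, had 684, 545 and 1036 counts, with ratios to the control of 0.843 (0.765 to 0.930) and 0.665 (0.599 to 0.739).

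The prolyl 3-hydroxylation complex, which modifies few prolines of each type I collagen chain, did not differ as a unit. Its enzyme Lepre1, annotated as P3h1, had 69.3 CPM in the dTF-cKO, 178 in the cKO and 383 in the control. It was 5.53-fold lower in the dTF-cKO (4.76 to 6.46) and 2.16-fold lower in the cKO (1.94 to 2.39). Its partner Crtap had 94, 186 and 288 CPM and was 3.06-fold lower in the dTF-cKO (2.67 to 3.52), a direction that the stroma scaling turned to 0.24 on the log2 scale. Ppib, or cyclophilin B, a prolyl isomerase of the complex and of other ER folding, had 399, 353 and 413 CPM. Its ratio to the control was 0.966 in the dTF-cKO (0.893 to 1.04) and 0.854 in the cKO (0.787 to 0.926). Ppib set against Lepre1 was 5.34-fold above the control in the dTF-cKO (4.51 to 6.33). The exons of Ppib share 825 bases with Snx22 on the opposite strand, and whether counting used strand is not given in the sources used here. Exons of Fkbp10, Fkbp14, Hsp90b1, Plod3, Sec23a and Loxl2 also overlap genes of the other strand, by 193 to 529 bases, so reads of those stretches cannot be assigned with certainty. Plod2 and Sec61a1 overlap, by 346 and 549 bases, genes of the other strand that the count data do not list. Hsp90b1 also shares 84 and 133 exon bases with Gm15344 and Gm25745 on the same strand.

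Of 8 genes of entry into the ER and of export from it, 1 was at least 2-fold below the control in the dTF-cKO, against 20.9% of all genes, and 1 in the cKO, against 6.78%. None was 2-fold above it, against 19.5% and 9.67% of all genes, so by 2-fold counts these few genes do not stand apart from the background. By counting intervals 7 of the 8 lay below the control in the cKO, against 19.2% of all genes, and 0 above it, against 25.1%. Their median there was -0.70, against 0.06 for all measured genes. In the dTF-cKO 5 lay below the control by counting intervals, against 32.2%, and 1 above it, against 37.5%. Under the stroma scaling 6 of the 8 were at least 2-fold above the control in the dTF-cKO and 6 at least 2-fold below it in the cKO. That scaling placed the median of all measured genes at 1.90 and -0.34 in that order. The lower gene in the dTF-cKO was Tram2, a translocon protein with a role in type I collagen synthesis, with 15.0 CPM in the dTF-cKO, 28.7 in the cKO and 51.2 in the control. It was 3.41-fold lower in the dTF-cKO (2.43 to 4.89), or 0.12 above 0 on the log2 scale under the stroma scaling. The lower gene in the cKO was Sec24d, a cargo-binding subunit of the COPII coat, with 164, 129 and 259.9 CPM in the dTF-cKO, cKO and control. It was 2.01-fold lower in the cKO (1.78 to 2.28), at the edge of the size rule.

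The remaining transport genes were within 2-fold of the control under TMM. Sec23a, the other COPII subunit listed, had 139, 104 and 159 CPM. Mia3, or TANGO1, which loads procollagen into COPII carriers, had 61.5, 87.7 and 113 CPM, with a ratio of 0.542 in the dTF-cKO (0.451 to 0.650). Sec61a1 and Sec61b, channel subunits of the translocon, had ratios to the control of 0.711 and 1.2 in the dTF-cKO and of 0.579 and 0.923 in the cKO. The receptors that return chaperones from the Golgi, Kdelr2 and Kdelr3, had 302 and 132 CPM in the dTF-cKO, 183 and 82.4 CPM in the cKO, and 280.3 and 161 CPM in the control. Sec23a, Sec24d, Mia3, Sec61a1 and Kdelr3, all below the control in the dTF-cKO, turned above it under the stroma scaling. Sec61b and Kdelr2, above it, turned below it without the 20 most abundant genes.

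The 2 ER regulators differed in opposite directions. Creb3l1, or OASIS, a membrane-bound transcription factor that is cleaved on ER stress and drives Col1a1 in osteoblasts, is encoded on mm10 chromosome 2 between 91982328 and 92024502. It had 53.2 CPM in the dTF-cKO, 158 in the cKO and 393 in the control. It was 7.39-fold lower in the dTF-cKO (6.24 to 8.81) and 2.49-fold lower in the cKO (2.23 to 2.77). Tmem38b, the ER cation channel TRIC-B, had few counts, 49 in the dTF-cKO, 26 in the cKO and 26 in the control. It was 2.41-fold above the control in the dTF-cKO (1.47 to 4.04), and its interval in the cKO spans 1 (0.706 to 2.27). Of its exon bases, 119 also belong to n-R5s185 on the same strand.

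**Figure D3:**
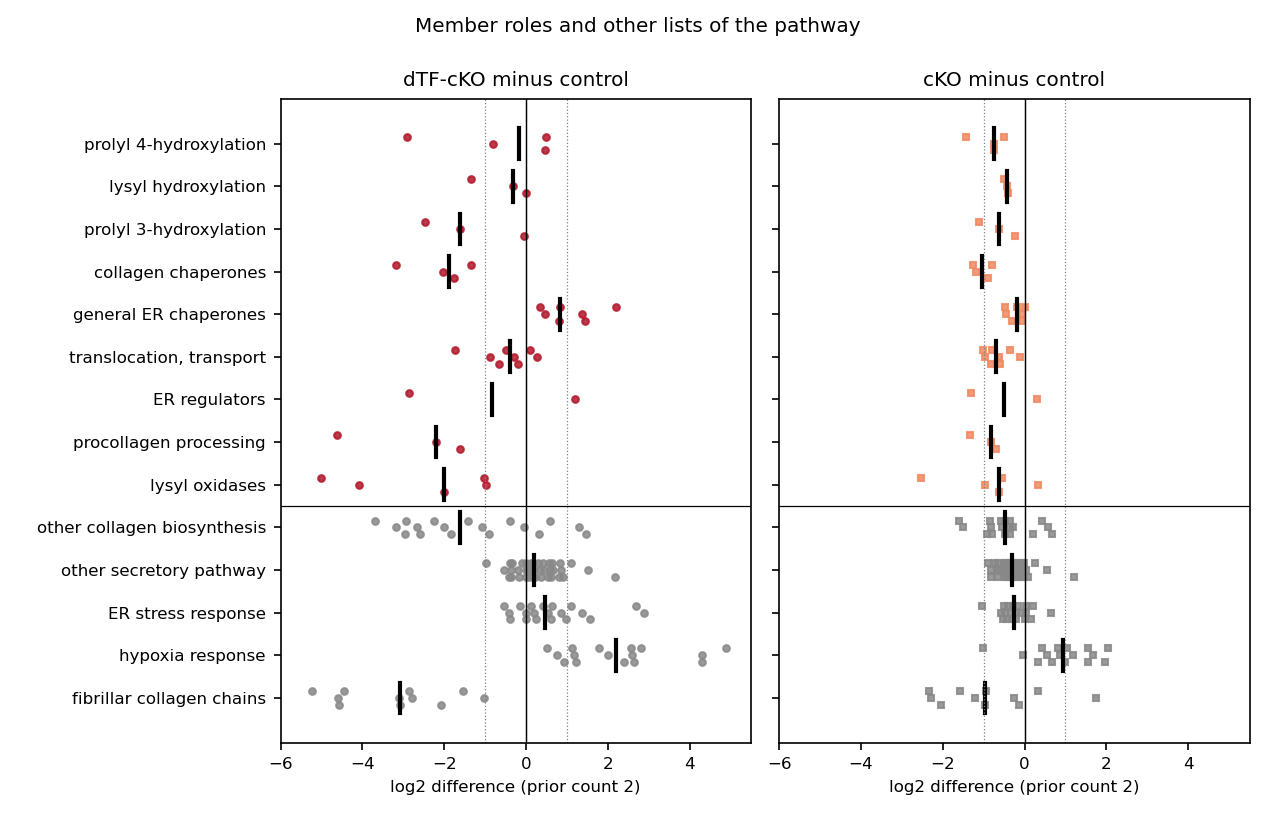
Log2 differences of the 39 genes by role and, below the line in grey, of other lists of the pathway, in the dTF-cKO minus the control (left) and the cKO minus the control (right), with black bars at the medians and Pcolce2, at 0 counts in the dTF-cKO, drawn with its prior count. In the dTF-cKO the medians run from -2.20 for procollagen processing to 0.84 for general ER chaperones, from -3.08 for fibrillar collagen chains to 2.20 for hypoxia genes. Under the stroma scaling the medians of the prolyl 4-hydroxylation, lysyl hydroxylation, prolyl 3-hydroxylation, translocation and ER regulator roles and of the other collagen list turn above 0. That scaling places the median of all measured genes at 1.90.

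Outside the cell, Bmp1 removes the C-propeptide of procollagen and Pcolce speeds that cleavage. Pcolce had 194 CPM in the dTF-cKO, 351 in the cKO and 891 in the control. It was 4.59-fold lower in the dTF-cKO (4.19 to 5.04) and 2.54-fold lower in the cKO (2.36 to 2.73), and 112 of its exon bases also belong to Fbxo24 on the same strand. Bmp1 had 121, 228 and 368 CPM and was 3.04-fold lower in the dTF-cKO (2.70 to 3.44), which the stroma scaling turned to 0.25 on the log2 scale. Pcolce2, the second enhancer, had 0 counts in the dTF-cKO, 24 in the cKO and 55 in the control. Set against the 3 counts that a 0 still allows, which are 1.07 CPM in that library, it was at least 14.4-fold lower in the dTF-cKO. All 3 processing genes were thus at least 2-fold lower in the dTF-cKO under TMM, against 20.9% of all genes, with Bmp1 on the other side under the stroma scaling, and Pcolce alone was in the cKO, against 6.78% of all genes.

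All 5 lysyl oxidases were below the control in the dTF-cKO under TMM, to very different degrees, and Lox and Loxl2 turned above it under the stroma scaling. Lox, the most abundant, had 404 CPM in the dTF-cKO, 541 in the cKO and 828 in the control. It was 2.05-fold lower in the dTF-cKO (1.91 to 2.19) and 1.53-fold lower in the cKO (1.44 to 1.63). Loxl2 had 118, 118 and 231 CPM, with ratios to the control of 0.509 and 0.510. Under the stroma scaling Lox and Loxl2 turned above 0 in the dTF-cKO, Lox to 0.82.

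The other oxidases had wider differences in the dTF-cKO. Loxl1, known for elastic fibres, had 8.22, 102 and 149 CPM and was 18.1-fold below the control in the dTF-cKO (12 to 28.9), against 1.46-fold in the cKO (1.26 to 1.69). Loxl3, a gene of palate and skeleton development, had 12.1, 63.0 and 50.3 CPM and was 4.14-fold lower in the dTF-cKO (2.86 to 6.17). In the cKO it was 1.25-fold above the control (1.0 to 1.55), which turned below 0 under the stroma scaling. Its exons share 535 bases with Htra2 on the opposite strand. Loxl4 had 6 counts in the dTF-cKO, 42 in the cKO and 317 in the control. It was 41.4-fold lower in the dTF-cKO (18.8 to 114) and 5.97-fold lower in the cKO (4.32 to 8.44), the largest fold of the list in the cKO.

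**Figure D4:**
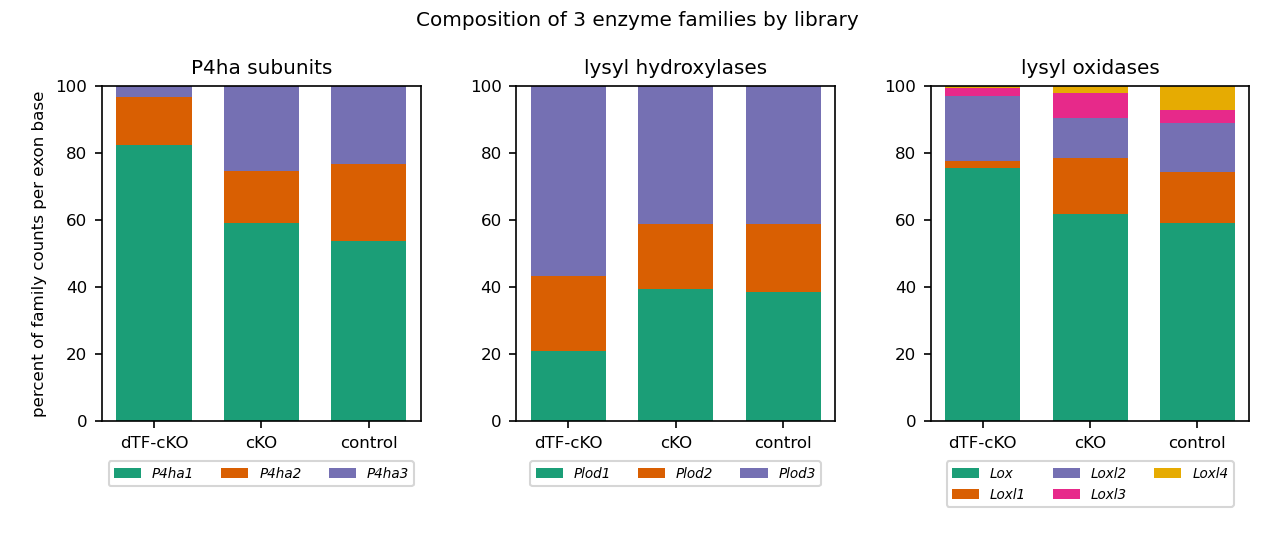
Share of each gene in the counts per exon base of its family, in percent, for the alpha subunits of prolyl 4-hydroxylase, the lysyl hydroxylases and the lysyl oxidases, with 1 bar per library. P4ha1, Plod3 and Lox take 82.5%, 56.5% and 75.6% in the dTF-cKO, 59.2%, 41.2% and 61.8% in the cKO, and 54.0%, 41.0% and 59.1% in the control.

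The 3 families shared a shape in the dTF-cKO, a larger share for the leading gene. Loxl1 made up 2.22% of lysyl oxidase counts per exon base in the dTF-cKO, 16.9% in the cKO and 15.4% in the control. Loxl4 made up 0.454%, 1.93% and 7.18%. Plod1 made up 21%, 39.3% and 38.7% of its family. The cKO was closer to the control than to the dTF-cKO in each of these shares except that of Loxl4.

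Set against its main client, the machinery held more counts in the Cre-carrying libraries than in the control. Such a ratio rises for any gene that is lowered less than the client. Type I collagen, encoded by Col1a1 and Col1a2, took 0.766% of counts in the dTF-cKO, 4.04% in the cKO and 17.6% in the control. In summed CPM these chains had 7952, 38298 and 178989 in that order, and the 39 genes had 16351, 10108 and 16794. For 1000 counts of these chains the 39 genes held 2056 counts in the dTF-cKO, 264 in the cKO and 93.8 in the control. That ratio was 21.9-fold above the control in the dTF-cKO (21.5 to 22.3) and 2.81-fold higher in the cKO (2.77 to 2.86). All roles shared this direction in both libraries, as would genes at the same CPM in all libraries. In the dTF-cKO it ran from 3.98-fold for the ER regulators (3.42 to 4.61) to 58.3-fold for the general ER chaperones (56.8 to 59.8), with the collagen chaperones at 8.43-fold (8.16 to 8.71). Among single genes Loxl4 alone gave a smaller ratio to these chains than the control in both libraries, at 0.544 times in the dTF-cKO (0.243 to 1.22) and 0.783 times in the cKO (0.568 to 1.08), with both intervals spanning 1. Pcolce2 was at 0 in the dTF-cKO.

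**Figure D5:**
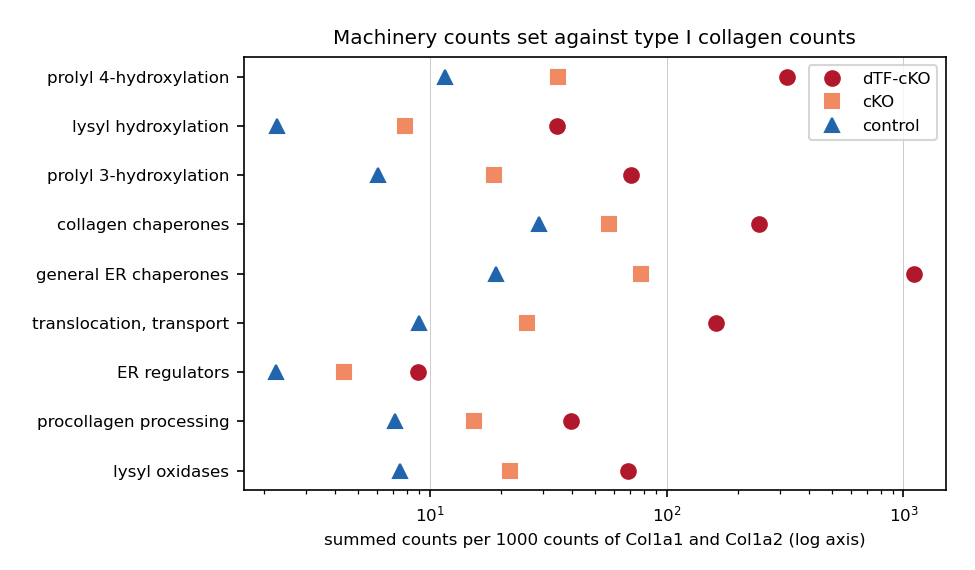
Summed counts of each role for 1000 counts of Col1a1 and Col1a2, on a log axis, with circles for the dTF-cKO, squares for the cKO and triangles for the control. In every role the dTF-cKO lies right of the cKO and the cKO right of the control, and the general ER chaperones span the widest range, at 1106, 77.9 and 19. Genes at the same CPM in all libraries would show this order too.

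Other lists of the pathway were set beside these roles. Of 18 measured genes of collagen biosynthesis outside the list, 11 lay at least 2-fold below the control in the dTF-cKO, or 61.1%, against 20.9% of all genes, and 2 above it, or 11.1%, against 19.5%. Those counts were 4 and 6 under the stroma scaling. Their median of -1.61 turned to 0.23 under that scaling, against 1.90 for all measured genes. Sparc, a collagen-binding matrix protein and the most abundant of them, had 6737 counts in the dTF-cKO, 11382 in the cKO and 40557 in the control. It was 4.71-fold lower in the dTF-cKO (4.59 to 4.84) and 2.82-fold lower in the cKO (2.76 to 2.88). Adamts14, an N-propeptidase, was 9.70-fold lower in the dTF-cKO (6.34 to 15.6). In the cKO 2 of the 18 were at least 2-fold lower, or 11.1%, against 6.78% of all genes, and 6 were under the stroma scaling. The 2 were Sparc and Serpinf1, a collagen-binding factor whose loss causes brittle bones.

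The general secretory pathway differed less under TMM. Of 39 genes of translocation, signal cleavage, N-glycosylation and vesicle coats, 0 were at least 2-fold lower in the dTF-cKO, against 20.9% of all genes. In that library 3 of the 39 were higher, or 7.69%, against 19.5% of all genes. Their median was 0.21, which turned to -0.15 without the 20 most abundant genes and was 2.06 under the stroma scaling. That scaling placed 38 of the 39 at least 2-fold above the control, with the median of all measured genes at 1.90. Copa and Surf4, the most abundant, had ratios to the control of 1.12 (1.04 to 1.21) and 1.0 (0.932 to 1.08). The widest were Sar1b, the small GTPase that starts COPII assembly, at 4.62-fold higher (3.48 to 6.21) and Sec24c at 2.88-fold higher (2.55 to 3.25), whereas Sec24d on the list had a ratio of 0.632 (0.564 to 0.708). In the cKO the median was -0.32, and Sar1b was the single gene past 2-fold, above the control. That is 2.56% higher, against 9.67% of all genes, and 0 lower, against 6.78%. Under the stroma scaling 8 of the 39 were at least 2-fold lower in the cKO and 0 higher, with the median of all measured genes at -0.34.

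In the dTF-cKO, ER stress genes stood near the background by the count at least 2-fold higher, but not by the other measures given here. Of 20 measured, 5 were at least 2-fold higher, or 25%, against 19.5% of all genes, and 0 were lower, against 20.9%. Counting intervals lay above 1 for 13 of the 20, against 37.5% of all genes, and below 1 for 2, against 32.2%. Their median was 0.47, against 0.05 for all measured genes, and 0.12 without the 20 most abundant genes. The stroma scaling placed all 20 at least 2-fold above the control, with a median of 2.32, against 1.90 for all measured genes. Hyou1, an Hsp110-type partner of Hspa5, had 1346, 345 and 580 counts in the dTF-cKO, cKO and control and was 2.96-fold above the control in the dTF-cKO (2.69 to 3.27). Ddit3, or CHOP, a stress-induced transcription factor, had 268, 36 and 44 counts and was 7.78-fold higher (5.64 to 11). Xbp1, whose spliced form drives ER chaperone genes, had a ratio of 1.18 (1.04 to 1.33), with splice forms not separated. In the cKO 0 of the 20 were at least 2-fold higher, against 9.67% of all genes, and 1 was lower, against 6.78%.

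Hypoxia genes had medians above 0 in both Cre-carrying libraries under all scalings, 2.20 in the dTF-cKO and 0.93 in the cKO. P4ha1, P4ha2, Plod1, Plod2 and Lox are known to be induced by low oxygen in many cells, so a list of other hypoxia genes was set beside them. Of 16 measured, 13 were at least 2-fold higher in the dTF-cKO, or 81.2%, against 19.5% of all genes, and 7 in the cKO, or 43.8%, against 9.67%. Slc2a1, the glucose transporter GLUT1, had 6660, 887 and 285 counts in the dTF-cKO, cKO and control and was 29.8-fold above the control in the dTF-cKO (26.5 to 33.7). Among the 5 listed genes, P4ha1 alone was above the control in the dTF-cKO, at 0.49 on the log2 scale, and the others ran from -1.34 to -0.31. The stroma scaling turned all of those others above 0, and placed the median of all measured genes at 1.90. In the cKO all 5 lay below the control, from -1.42 for P4ha2 to -0.41 for Plod1, and stayed below it under all scalings. The part of hypoxia in any of these values was not tested, nor was that of the epidermal and stromal makeup.

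Set directly against the cKO, the dTF-cKO had 9 of the 39 genes at least 2-fold lower, or 23.1%, against 20.5% of all genes, a share near the background under TMM. The count was 14 without the 20 most abundant genes and 15 with the median of the other secretory genes set to 0. These scalings also lowered the median of all measured genes, to -0.29 and -0.48. The stroma scaling gave 2 lower and 25 higher, with that median at 1.84. By counting intervals 18 lay below the cKO, against 32.5%, and 19 above it, against 33.9%. Another 4 were at least 2-fold higher, or 10.3%, against 14.5%. The 4 were P4ha1, Hspa5, Hsp90b1 and Calr, and the 9 were P4ha3, Lepre1, Fkbp14, Fkbp7, Creb3l1, Pcolce2, Loxl1, Loxl3 and Loxl4. Of these 9, Lepre1, Fkbp7 and Creb3l1 turned above 0 under the stroma scaling. Loxl1 was the lowest with counts in both, at 23 in the dTF-cKO and 289 in the cKO, 12.4-fold lower (8.13 to 19.9). Hsp90b1 and Calr were 2.95-fold (2.77 to 3.14) and 2.87-fold higher (2.74 to 3.02). Under TMM Serpinh1, with a ratio of 0.959 (0.922 to 0.998), was nearly level between both libraries although the chains it binds were not, Col1a1 being 4.32-fold lower in the dTF-cKO (4.24 to 4.40). The stroma scaling turned Serpinh1 to 1.77 above the cKO on the log2 scale.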

How the data were processed

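PolyA RNA was isolated on RNeasy columns and made into libraries by the Ion Total RNA-Seq method, per the labels' protocols. The authors deposited raw counts per gene symbol, 1 table per library, mapped to mm10 per the submitters' processing notes. The sources used here name no aligner, counting tool, annotation or strand setting. Spreadsheet dates stood in place of 27 symbols (up to 0.180% of counts), and the duplicated ones were left out.

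Counts were scaled with TMM factors (0.963 for the dTF-cKO, 1.06 for the cKO, 0.984 for the control) in edgeR 4.0.16 under R 4.3.3, with a prior count of 2 for log2 CPM. Folds used no prior count, with exact conditional (Clopper-Pearson) intervals from SciPy 1.17.1. Ratios of ratios have approximate Wald intervals. With 1 library per group no test was made. The limit that a 0 allows, 3 counts, equals 1.07, 1.06 and 0.839 CPM in that order. Exon lengths and positions came from GENCODE M21, promoter windows from RefSeq. Interval code was tested on simulated data.

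The genes and lists were chosen with earlier results of these data known. All listed genes are named, with Ctnnb1 and, from other lists, the 2 most abundant or most different where a result turns on them. Xist, Colgalt1 and genes that overlap listed ones fall outside this rule and were chosen after their values were seen. Alternatives were other scalings (library totals, DESeq2 1.42.0 size factors), prior counts, floors and size rules.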

Additional observations from a re-analysis of the deposited data

How the results depend on the processing

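No paired analysis was possible because each genotype has 1 library, so no library could be left out either. Library totals, DESeq2 size factors, prior counts of 0.5 and 10, no floor and a floor of 20 CPM kept each count of listed genes within 1.5 times and each median on its side of 0. With the 20 most abundant genes of every library left out of the totals, the median in the dTF-cKO against the control was -1.16, and against the cKO it turned from 0.18 to -0.12, with 14 genes lower. All measured genes then had medians of -0.30 and -0.29. With the median of the other secretory genes set to 0, 3 genes were lower in the cKO than in the control (median -0.30, and 0.37 for all measured genes). The median in the dTF-cKO against the control was then -1.01, and against the cKO it was -0.31, with 15 lower. For all measured genes these medians were -0.15 and -0.48. The stroma scaling moved most. In the cKO against the control it gave 22 lower and a median of -1.01, with all measured genes at -0.34. In the dTF-cKO it gave 6 lower, 20 higher and a median of 1.05 against the control, with all measured genes at 1.90. Against the cKO it gave 2 lower, 25 higher and a median of 2.01, with all measured genes at 1.84. Genes called lower against the control that it turned above 0 in the dTF-cKO were Plod1 (0.51), Crtap (0.24), Serpinh1 (0.52), Fkbp10 (0.085), Tram2 (0.12), Bmp1 (0.25) and Lox (0.82). Against the cKO they were Lepre1 (0.48), Fkbp7 (0.60) and Creb3l1 (0.27). A 1.5-fold rule gave 22 lower in the cKO, and 14 lower and 13 higher in the dTF-cKO against the cKO. A 3-fold rule gave 1 lower in the cKO, and 1 higher in the dTF-cKO against the control and 1 against the cKO. Counting intervals that exclude 1 gave 33 lower and 1 higher in the cKO, 11 higher in the dTF-cKO against the control, and 18 lower and 19 higher against the cKO. The cause of these shifts was not tested. Depth limits P4ha3, Fkbp14, Fkbp7, Tram2, Tmem38b, Pcolce2, Loxl1, Loxl3 and Loxl4, each with under 50 counts in the dTF-cKO.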
